A study of Mus musculus with 96 samples.

Results

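The imprinted growth genes described here are H19, Igf2, Igf2r, Grb10, Plagl1, Cdkn1c, Dlk1 and Gnas, 8 of the 55536 gene IDs in RNA-seq tables of intestinal organoids from mice, which are epithelial cultures that organise themselves in a gel. The 8 were picked by symbol, each matching 1 ID, and they were picked because their levels were already known to differ between the genotypes of these libraries. Their genotype differences are therefore a description: no p-value is given for them, and a count of members past the call rule used for all genes was fixed in part by that choice and is read as nothing more. Tests are given for time, for library number and for single other genes. The lists of other genes were also chosen with earlier results of these data known, so their counts beside all genes are no test of a list. The 4 genotypes, all on the C57BL/6 strain, are called Apc-min Bmal1-null (labelled APCmin/-;BMAL1-/-), Apc-min (APCmin/-;BMAL1+/+), Bmal1-null (APC+/+;BMAL1-/-) and control (APC+/+;BMAL1+/+). The labels call the first pair adenoma organoids. All cultures, controls included, received 0.1 µM dexamethasone for 1 h, a glucocorticoid pulse that sets cell clocks to a common phase, and were collected every 2 h from 24 to 46 h afterwards. There are 22 libraries for each genotype and 88 altogether, 1 or 2 of each genotype at each of the 12 time points. Per the labels 2 organoid lines were used per genotype, but the line of each library is not given, so every SE and p-value measures how libraries spread, and the spread of lines is not separated.

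Imprinted genes are transcribed mainly from the copy inherited from 1 parent, and many of them act on fetal growth, with paternally expressed members tending to promote it and maternally expressed members tending to restrain it. Igf2 encodes insulin-like growth factor 2, a paternally expressed ligand, and H19 is a maternally expressed noncoding RNA from the same domain, where the insulator protein CTCF keeps shared enhancers from Igf2 on the maternal copy. Most of these genes are high in fetal tissues and fall after birth, and the tumour suppressor Apc, a brake on the Wnt pathway, and Bmal1 (symbol Arntl), a transcription factor of the circadian clock, are not themselves imprinted. Expression is given in TPM, transcript abundance scaled by transcript length and by the library total, which does not separate the parental copies.

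Of the libraries, 2 at 28 h went against their labels. Arntl was at 14.7 TPM in the library labelled Apc-min Bmal1-null number 10, where the other libraries of that genotype lay between 2.0 and 6.22 TPM. It was at 4.09 TPM in the library labelled Apc-min number 9, where the others lay between 7.2 and 17.29 TPM. Values below leave out these 2 doubted libraries unless all libraries are named, which leaves 21 in each Apc-min genotype. Depth ran from 28.77 to 48.08 M uniquely mapped reads over the 88 libraries. EN medium was used for cultures with APCmin and ENR medium for the rest, and their libraries carry numbers 1 to 48 against 49 to 96, so the Apc genotype, the medium and the library series cannot be told apart. Reads left unmapped as too short averaged 1.305% in Apc-min Bmal1-null and 1.299% in Apc-min libraries, against 6.002% in Bmal1-null and 6.728% in control libraries. All 8 epithelial markers were above 1 TPM in every genotype. Of 10 fibroblast genes listed, Col1a1, Col1a2, Col3a1, Dcn, Lum, Postn and Thy1 averaged under 0.1 TPM in all 4. With all libraries, 1 of the 10 averaged 1 TPM or more in each APCmin genotype and 2 did in Bmal1-null and in control organoids. Of 5 endothelial genes, 3 reached that level in Apc-min Bmal1-null, 2 in Apc-min, 1 in Bmal1-null and 0 in control organoids. The part of other cell types was not tested.

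H19 (ENSMUSG00000000031, chromosome 7, 142575529 to 142578143 on the minus strand, GRCm38), a long intergenic RNA, was abundant in Apc-min organoids alone. In the lowest, median and highest library it stood at 0.17, 0.45 and 1.51 TPM in Apc-min Bmal1-null libraries, and at 130.99, 198.41 and 401.21 TPM in Apc-min organoids. In Bmal1-null organoids these values were 0, 0.09 and 0.35 TPM, with 8 of 22 libraries listed at 0, and in control organoids 0, 0.12 and 0.41 TPM, with 3 listed at 0. Every Apc-min library was above every library of the other 3 genotypes, and the ranges of those 3 overlapped. The Apc-min mean of 219.7 ± 69.1 TPM was 399.5 times the Apc-min Bmal1-null mean of 0.55 ± 0.308 TPM (SD, n = 21 each). Apc-min Bmal1-null organoids were above Bmal1-null organoids at 12 of 12 time points on average, at levels under 1 TPM for the most part, where the means were 0.55 TPM and 0.115 ± 0.118 TPM (SD, n = 22).

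H19 is the host of miR-675, and Igf2 carries miR-483 in an intron. The mature forms are shown because they are the short RNAs that these transcripts can give rise to, and mature miRNAs were not measured in these libraries. They are read from RefSeq on GRCm38.p6, all on the minus strand of chromosome 7, with the seed, bases 2 to 8 from the 5′ end, in capitals. The 4 seeds differ from each other. The arms of miR-675 lie at chr7:142577078-142577099 (3p) and chr7:142577112-142577133 (5p), inside the H19 transcript, and those of miR-483 at chr7:142654932-142654952 (3p) and chr7:142654968-142654989 (5p).
mmu-miR-675-5p: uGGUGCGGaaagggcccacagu
mmu-miR-675-3p: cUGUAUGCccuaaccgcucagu
mmu-miR-483-5p: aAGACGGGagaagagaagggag
mmu-miR-483-3p: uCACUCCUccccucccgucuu

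Igf2 (ENSMUSG00000048583, chromosome 7, 142650766 to 142666816 on the minus strand), 72.62 kb from H19, was also highest in Apc-min organoids but was ordered differently below them. It stood at 0, 0.06 and 0.39 TPM (lowest, median, highest) in Apc-min Bmal1-null organoids, against 9.29, 24.28 and 35.4 TPM in Apc-min organoids. Bmal1-null organoids held 0.53, 0.955 and 1.83 TPM and control organoids 0.47, 1.085 and 1.66 TPM. Apc-min Bmal1-null organoids were thus the lowest of the 4, with no library overlapping either neighbour, whereas H19 was higher there than in the genotypes with wild-type Apc. Bmal1-null organoids averaged 1.07 ± 0.395 TPM and control organoids 1.07 ± 0.336 TPM (SD, n = 22 each), and their ranges overlapped. On the scale log2(TPM + 1), which understates changes of low genes, Igf2 differed by -0.87 ± 0.07 (SE) between Apc-min Bmal1-null and Bmal1-null organoids. The antisense transcript Igf2os (chromosome 7, 142659693 to 142670356, plus strand) averaged 0.009 TPM in Apc-min Bmal1-null, 0.329 TPM in Apc-min, 0.0582 TPM in Bmal1-null and 0.0305 TPM in control organoids. The libraries were made with a directional kit, but whether strand was used in counting is not given in the sources used here, so reads of Igf2 and Igf2os cannot be told apart.

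**Figure D1:**
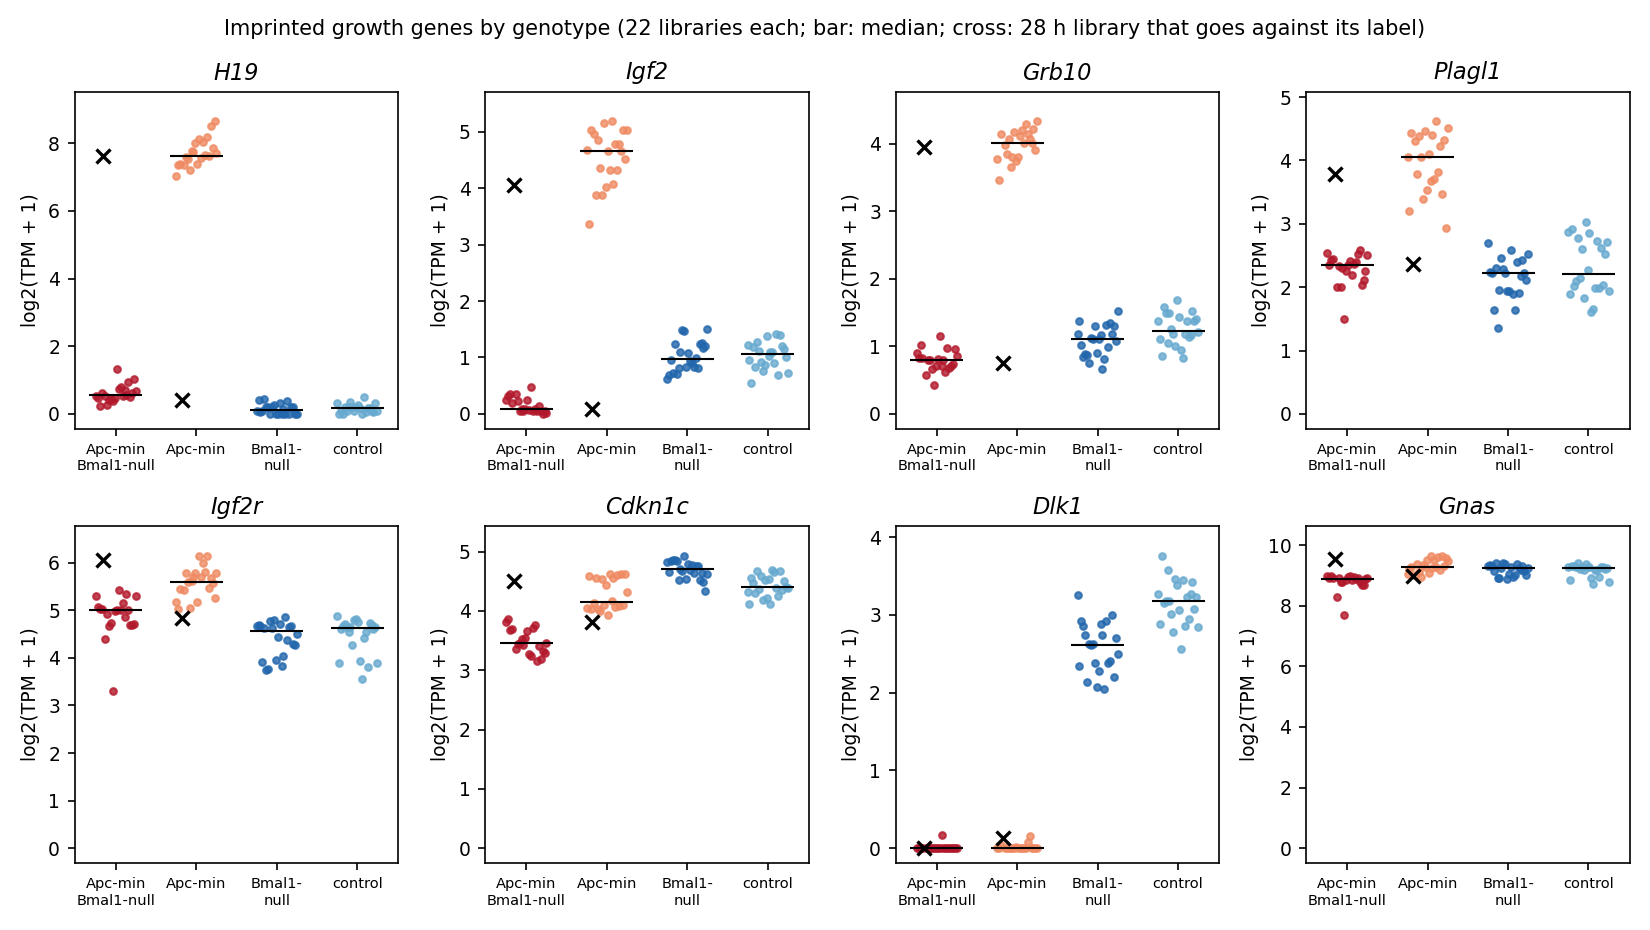
Level of each gene on the log2(TPM + 1) scale (y axis) in the 22 libraries of each genotype (x axis), with 1 point per library, the median as a bar and the doubted 28 h library of each Apc-min genotype as a cross. For H19, Igf2 and Grb10 the Apc-min dots, crosses left aside, lie above all other dots, with Apc-min H19 between 130.99 and 401.21 TPM, and the crosses lie with the other Apc-min genotype.

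Igf2r (ENSMUSG00000023830, chromosome 17, 12682406 to 12769664 on the minus strand) encodes the receptor that takes IGF2 to the lysosome and so removes it. It was expressed in every library, at 8.84, 31.09 and 42.04 TPM (lowest, median, highest) in Apc-min Bmal1-null organoids and at 31.84, 47.96 and 70.2 TPM in Apc-min organoids. Bmal1-null organoids had 12.46, 22.67 and 27.87 TPM and control organoids 10.81, 23.76 and 28.55 TPM. The genotype order was Apc-min, Apc-min Bmal1-null and then the other 2, which did not differ beyond their spread, and every library of Apc-min was above every control library. The lowest Apc-min Bmal1-null value came from library number 19 at 32 h, whose share of too-short reads, 3.86%, was the highest of its genotype; the next value was 20.22 TPM. The same library held the lowest Gnas (205.49 TPM, the next 314.37 TPM) and the lowest Plagl1 (1.82 TPM) of Apc-min Bmal1-null organoids, and the part of read quality in this was not tested.

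The noncoding RNA Airn runs antisense from within Igf2r (chromosome 17, 12741311 to 12860136, plus strand) and silences the paternal Igf2r copy in most mouse tissues. Airn averaged 3.21 ± 0.636 TPM in Apc-min Bmal1-null and 5.05 ± 2.27 TPM in Apc-min organoids (SD, n = 21 each), against 3.55 ± 0.803 TPM in Bmal1-null and 3.70 ± 0.798 TPM in control organoids (SD, n = 22 each). It was thus highest on average where Igf2r was highest, with overlapping ranges in all 4 genotypes. As with Igf2 and Igf2os, Airn and Igf2r reads over the shared stretch cannot be told apart without knowing how strand was counted.

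Grb10 (ENSMUSG00000020176, chromosome 11, 11930508 to 12038683 on the minus strand) encodes an adaptor that binds the insulin and IGF1 receptors and dampens their signalling. It stood at 0.34, 0.73 and 1.23 TPM in Apc-min Bmal1-null libraries, against 10.05, 15.13 and 19.14 TPM in Apc-min organoids. Bmal1-null organoids held 0.59, 1.155 and 1.88 TPM and control organoids 0.78, 1.35 and 2.23 TPM. The pattern was that of Igf2, with Apc-min far above the rest and Apc-min Bmal1-null lowest, but the 3 low genotypes overlapped. The Apc-min mean of 15.05 ± 2.42 TPM was 20.5 times the Apc-min Bmal1-null mean of 0.736 ± 0.197 TPM (SD, n = 21 each).

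Plagl1 (ENSMUSG00000019817, chromosome 10, 13060504 to 13131694 on the plus strand) encodes ZAC1, a zinc finger transcription factor that in mice binds near several imprinted genes, H19 and Igf2 among them. Its levels were 1.82, 4.12 and 5.04 TPM in Apc-min Bmal1-null libraries and 6.66, 15.69 and 23.57 TPM in Apc-min organoids. Bmal1-null organoids had 1.56, 3.66 and 5.5 TPM and control organoids 2.05, 3.63 and 7.12 TPM. Apc-min was again the highest genotype, although its lowest library lay under the highest control library, and the other 3 did not differ beyond their spread.

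The promoters of 4 of these genes are shown because Igf2 and Grb10 were most alike across libraries, while Plagl1 and Igf2r are the only members whose listed promoters hold the E-box letters CACGTG that Bmal1 with its partner Clock is known to bind. Each runs from 250 bases before to 50 after a transcript start in RefSeq on GRCm38.p6, which lists 13 promoters for 6 of the 8 genes, and E-box letters are in capitals. The Plagl1 promoter (chr10:13090582-13090881, plus strand) has 1 match, 182 bases before the start, and 26 CpG. That of Igf2r (chr17:12769657-12769956, minus strand) has 2, at 48 and 7 bases before the start, and 34 CpG. The third listed Igf2 promoter (chr7:142658755-142659054, minus strand) has 24 CpG and the first of Grb10 (chr11:12037371-12037670, minus strand) has 45.
Plagl1: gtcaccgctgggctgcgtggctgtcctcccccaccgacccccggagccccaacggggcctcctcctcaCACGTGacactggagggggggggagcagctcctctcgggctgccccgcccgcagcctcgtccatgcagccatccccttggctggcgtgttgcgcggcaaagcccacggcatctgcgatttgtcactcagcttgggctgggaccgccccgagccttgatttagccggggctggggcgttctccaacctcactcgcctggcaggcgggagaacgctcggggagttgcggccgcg
Igf2r: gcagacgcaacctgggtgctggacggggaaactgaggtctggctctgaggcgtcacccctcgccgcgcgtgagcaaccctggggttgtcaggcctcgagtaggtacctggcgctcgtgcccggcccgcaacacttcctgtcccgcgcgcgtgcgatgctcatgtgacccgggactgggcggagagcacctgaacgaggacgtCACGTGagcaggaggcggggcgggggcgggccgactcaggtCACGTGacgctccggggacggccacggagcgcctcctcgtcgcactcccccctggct
Igf2: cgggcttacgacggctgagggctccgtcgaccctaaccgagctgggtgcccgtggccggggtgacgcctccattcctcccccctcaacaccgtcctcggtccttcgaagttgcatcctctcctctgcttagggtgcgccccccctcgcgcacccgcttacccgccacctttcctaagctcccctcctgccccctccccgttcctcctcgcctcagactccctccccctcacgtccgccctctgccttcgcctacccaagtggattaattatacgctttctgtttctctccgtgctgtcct
Grb10: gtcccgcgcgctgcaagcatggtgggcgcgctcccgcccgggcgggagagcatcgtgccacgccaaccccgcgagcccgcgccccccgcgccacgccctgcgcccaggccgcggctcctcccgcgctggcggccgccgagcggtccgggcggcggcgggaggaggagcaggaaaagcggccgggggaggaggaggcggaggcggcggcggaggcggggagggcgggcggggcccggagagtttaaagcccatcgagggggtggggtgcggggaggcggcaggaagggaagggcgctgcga
Both strands were searched, and CACGTG reads the same on each. The letters occur in 7.15% of all 32851 listed promoters of this length. CTTTGAT, letters bound by TCF and LEF factors of the Wnt pathway, occur in 3.729% and GGGGCCCC, a consensus of ZAC1, in 1.078%, and neither is in any of the 13 windows. No other of the 3 motifs overlaps an E-box match. These matches describe letters only, and binding was not measured. The median listed promoter has 7 CpG and a GC content of 52.67%, so the 4 printed windows hold more CpG than it, and GC content was 80% in the Grb10 window and 70.67% in those of Plagl1 and Igf2r. For Igf2 and Grb10 the printed window is the one with the most CpG of those listed. The other Igf2 windows hold 2, 14 and 7 CpG, and the other Grb10 window holds 9 at a GC content of 52.33%.

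Cdkn1c (ENSMUSG00000037664, chromosome 7, 143458339 to 143461050 on the minus strand), 791.52 kb from Igf2, encodes p57, an inhibitor of cyclin-dependent kinases that stops the cell cycle. It did not follow Igf2. Levels were 7.89, 10.02 and 13.53 TPM in Apc-min Bmal1-null libraries and 14.34, 17.03 and 23.7 TPM in Apc-min organoids, against 19.2, 24.99 and 29.6 TPM in Bmal1-null and 16.34, 20.08 and 24.82 TPM in control organoids. Apc-min Bmal1-null was lowest, with no library reaching any other genotype, and Bmal1-null was highest. Bmal1-null averaged 25.01 ± 2.62 TPM and control 20.6 ± 2.68 TPM (SD, n = 22 each), with Bmal1-null above control at 12 of 12 time points. Null Bmal1 thus went with less Cdkn1c beside APCmin and with more beside wild-type Apc, by -0.80 ± 0.08 and 0.27 ± 0.05 log2 units (SE).

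Dlk1 (ENSMUSG00000040856, chromosome 12, 109452823 to 109463336 on the plus strand), a paternally expressed membrane protein related to Notch ligands, had the opposite Apc pattern from H19. It was listed at 0 in 20 of 21 Apc-min Bmal1-null libraries and in 17 of 21 Apc-min libraries, with highest values of 0.12 and 0.11 TPM. Bmal1-null organoids held 3.14, 5.13 and 8.56 TPM and control organoids 4.91, 8.07 and 12.59 TPM. No library of the APCmin genotypes came near those of wild-type Apc. Dlk1 was lower in Bmal1-null than in control organoids at 11 of 12 time points, with a difference of -0.59 ± 0.10 log2 units (SE) and overlapping ranges. Its maternally expressed neighbour Meg3, a noncoding RNA, was listed at 0 in all 21 Apc-min Bmal1-null libraries and averaged 0.013 TPM in Apc-min, 0.105 TPM in Bmal1-null and 0.069 TPM in control organoids.

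Gnas (ENSMUSG00000027523, chromosome 2, 174284320 to 174346744 on the plus strand), a complex imprinted locus whose main product is the stimulatory G protein alpha subunit that couples receptors to cyclic AMP, was the most abundant of the 8 in TPM in every genotype. It stood at 205.49, 472.4 and 508.98 TPM in Apc-min Bmal1-null libraries and at 494.26, 628.16 and 808.46 TPM in Apc-min organoids. Bmal1-null organoids had 475.49, 604.3 and 678.74 TPM and control organoids 423.93, 609.1 and 679.2 TPM. Apc-min Bmal1-null had the lowest median, but its highest library reached into the ranges of the other 3 genotypes, and those 3 overlapped each other. Nespas, an imprinted antisense RNA of the locus (chromosome 2, 174281237 to 174295436, minus strand), split by Apc instead, averaging 0.93 ± 0.207 TPM in Apc-min Bmal1-null and 0.841 ± 0.334 TPM in Apc-min organoids (SD, n = 21 each). In Bmal1-null organoids it averaged 0.045 ± 0.054 TPM and in control organoids 0.079 ± 0.062 TPM (SD, n = 22 each). As with Igf2 and Igf2os, Nespas and Gnas reads over the shared stretch cannot be told apart without knowing how strand was counted.

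Between Apc-min Bmal1-null and Apc-min organoids all 7 members that could be compared were lower, at 12 of 12 time points for all but Igf2r, which was lower at 11. The log2(TPM + 1) differences were -7.07 ± 0.09 for H19, -3.18 ± 0.06 for Grb10, -1.69 ± 0.13 for Plagl1, -0.80 ± 0.08 for Cdkn1c, -0.66 ± 0.10 for Igf2r and -0.50 ± 0.07 for Gnas (SE of the limma coefficient, n = 21 each), and Igf2 lay between H19 and Grb10. Dlk1 was under the filter of a mean of 1 TPM in at least 1 genotype. The call rule for all genes is a Benjamini-Hochberg adjusted p under 0.05 in limma with a 2-fold difference. Of the 7, 4 (H19, Igf2, Grb10 and Plagl1) lay past it on the lower side, beside 7.91% of 12914 genes called in either direction and 5.58% called lower. With all libraries the 4 were again H19 (-6.40 ± 0.52), Igf2 (-4.00 ± 0.33), Grb10 (-2.88 ± 0.24) and Plagl1 (-1.55 ± 0.17), beside 6.42% called and 4.5% called lower. Libraries did not overlap for 5 members, H19, Igf2, Grb10, Plagl1 and Cdkn1c, beside 7.16% of genes. These are the differences by which the genes were chosen, so the counts are no test. Among marker lists, the summed level of 10 fibroblast genes, 1 of them at 1 TPM or more, was 0.59 to 8.39 TPM in Apc-min Bmal1-null and 4.07 to 17.45 TPM in Apc-min organoids, with all libraries. That of 4 smooth muscle genes, again with 1 at 1 TPM or more, was 2.21 to 19.5 TPM and 0.32 to 11.03 TPM in the same order, with Cnn1, Des and Myh11 under 0.1 TPM in both, and the part of either list was not tested. In bulk organoid RNA, fewer cells that express a gene and less of its RNA per cell cannot be told apart.

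Between Bmal1-null and control organoids Igf2, Grb10, Plagl1, Igf2r and Gnas stayed close. The differences were -0.00 ± 0.08 for Igf2, -0.17 ± 0.07 for Grb10, -0.17 ± 0.12 for Plagl1, -0.05 ± 0.11 for Igf2r and 0.01 ± 0.06 for Gnas (log2, SE, n = 22 each), with H19 under the filter. Cdkn1c was higher in Bmal1-null organoids (0.27 ± 0.05) and Dlk1 lower (-0.59 ± 0.10). A single fit of the 86 libraries gave the difference between the Bmal1 differences, beside APCmin minus beside wild-type Apc. It was -7.09 ± 0.11 for H19, -4.38 ± 0.14 for Igf2, -3.02 ± 0.09 for Grb10, -1.52 ± 0.17 for Plagl1, -1.07 ± 0.09 for Cdkn1c, -0.65 ± 0.17 for Igf2r, -0.55 ± 0.10 for Gnas and 0.58 ± 0.10 for Dlk1 (SE). It was positive for Dlk1 alone, which was near 0 in both APCmin genotypes.

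**Figure D2:**
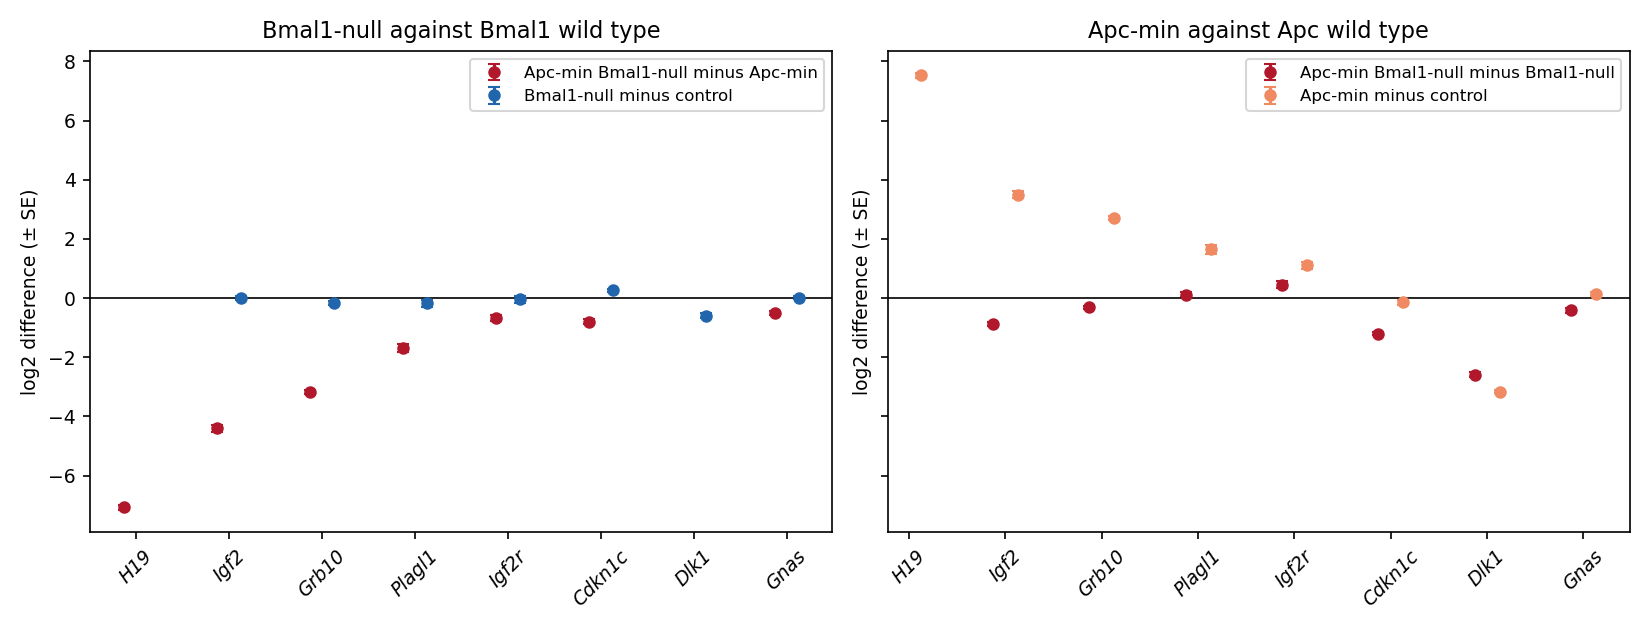
Log2(TPM + 1) differences with SE bars (y axis) of each gene (x axis), without the doubted libraries, for Bmal1-null against wild-type Bmal1 in each Apc background (left) and for APCmin against wild-type Apc in each Bmal1 background (right). H19 is at -7.07 between the Apc-min genotypes and Igf2 at -0.00 between Bmal1-null and control organoids; a gene under the expression filter has no point.

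Between Apc-min and control organoids 6 of 8 members lay past the call rule, 5 higher and 1 lower, beside 24.6% of 13674 genes, 12.2% higher and 12.4% lower. The genes were chosen for such differences, so this count too is no test. H19 differed by 7.53 ± 0.09, Igf2 by 3.50 ± 0.13, Grb10 by 2.71 ± 0.08, Plagl1 by 1.65 ± 0.15, Igf2r by 1.11 ± 0.11 and Dlk1 by -3.16 ± 0.06 log2 units (SE, n = 21 and 22). The median of all genes was itself at 0.17, and with all libraries and median-of-ratios scaling Igf2r was under 2-fold at 0.92 and Gnas changed sign, at -0.04 against 0.12 without that scaling. Cdkn1c was at -0.15 ± 0.07 and Gnas at 0.13 ± 0.07. Of 7 markers of fetal and regenerative epithelium, 6 passed higher in Apc-min than in control organoids, beside the 12.2% of all genes, and Anxa10 passed lower (-4.21 ± 0.07). Anxa10 was higher in Apc-min Bmal1-null than in Apc-min organoids (4.42 ± 0.12). With all libraries 7 of 7 had a mean of 1 TPM or more in both APCmin genotypes (6 of 7 in Apc-min without the doubted library), with a summed level of 2404.57 to 3956.22 TPM in Apc-min Bmal1-null and 2989.87 to 4090.92 TPM in Apc-min organoids. In Bmal1-null organoids 4 of 7 reached 1 TPM, with a sum of 149.9 to 370.58 TPM, and in control organoids 4 of 7, with 161.74 to 478.64 TPM. The part of this shift in the levels of the members was not tested. Between Apc-min Bmal1-null and Bmal1-null organoids Igf2 was at -0.87 ± 0.07, Grb10 at -0.31 ± 0.06, Plagl1 at 0.11 ± 0.09 and Igf2r at 0.45 ± 0.12. The log2(TPM + 1) scale understates changes of low genes. Igf2 averaged 0.115 TPM in Apc-min Bmal1-null and 1.07 TPM in Bmal1-null organoids, without overlap. H19, under the filter in this comparison, averaged 0.55 TPM and 0.115 TPM in the same order. There 2 of 7 members lay past the call rule, Cdkn1c (-1.20 ± 0.05) and Dlk1 (-2.58 ± 0.08), beside 26.8% of 13362 genes called and 15.2% called lower. With all libraries 6 members lay past it between Apc-min and control organoids, beside 24.5% of genes, and 2 between Apc-min Bmal1-null and Bmal1-null organoids, beside 26.4%. These comparisons share their Apc-min and their wild-type libraries with those above.

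The doubted libraries sat with the other Apc-min genotype for the members too. The library labelled Apc-min Bmal1-null number 10 held H19 at 196.38 TPM, Igf2 at 15.64 TPM, Grb10 at 14.48 TPM, Plagl1 at 12.75 TPM and Cdkn1c at 21.73 TPM. The library labelled Apc-min number 9 held H19 at 0.33 TPM, Igf2 at 0.06 TPM, Grb10 at 0.69 TPM, Plagl1 at 4.13 TPM and Cdkn1c at 13.11 TPM. Each fell inside the range of the genotype it was not labelled with for 8 of 8 members. In its own genotype's range the first had 1 member (Dlk1) and the second 2 (Dlk1 and Gnas). The members were chosen for differing between genotypes, and Dlk1 was near 0 in both. The share of all genes in either range was not counted, so these counts are a description.

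Each time point has at most a lower-numbered and a higher-numbered library, and this split, the only one the labels give, was tested within each genotype. In Apc-min organoids the members divided by library number, but so did most genes. Plagl1 stood at 15.63, 19.45 and 23.57 TPM in the 12 higher-numbered libraries and at 6.66, 10.53 and 13.04 TPM in the 9 lower-numbered ones. Cdkn1c went the other way, with 14.34, 15.9 and 19.07 TPM in higher-numbered and 20.66, 23.01 and 23.7 TPM in lower-numbered libraries. Neither gene's libraries overlapped, and each kept its direction at 9 of 9 time points, but libraries did not overlap for 22.4% of all genes. In limma with time as a factor, Plagl1 differed by 0.89 ± 0.11 (adjusted p = 1.38e-05) and Cdkn1c by -0.48 ± 0.04 (adjusted p = 1.13e-06), higher-numbered minus lower-numbered.

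H19 and Igf2 moved in opposite directions between these Apc-min libraries. H19 stood at 130.99, 185.3 and 230.13 TPM in the higher-numbered libraries and at 162.61, 260.82 and 401.21 TPM in the lower-numbered ones, a difference of -0.42 ± 0.09 (limma adjusted p = 0.00183). Igf2 stood at 19.49, 29.08 and 35.4 TPM in the higher-numbered libraries and at 9.29, 15.94 and 24.14 TPM in the lower-numbered ones, a difference of 0.83 ± 0.12 (adjusted p = 6.66e-05). Each gene overlapped between the sets, yet the ratio of Igf2 to H19 did not, at 0.132, 0.151 and 0.192 in higher-numbered libraries and 0.0549, 0.0635 and 0.0716 in lower-numbered libraries. This ratio was chosen after the values were seen and has no test. Igf2os was split in the same direction as Igf2, averaging 0.509 ± 0.115 TPM in higher-numbered (SD, n = 12) and 0.0878 ± 0.0438 TPM in lower-numbered libraries (SD, n = 9), with no overlap. Airn averaged 3.52 ± 0.980 TPM in higher-numbered and 7.08 ± 1.84 TPM in lower-numbered libraries and was lower in the higher-numbered library at 9 of 9 time points, whereas Igf2r differed by -0.13 ± 0.12 (adjusted p = 0.338).

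**Figure D3:**
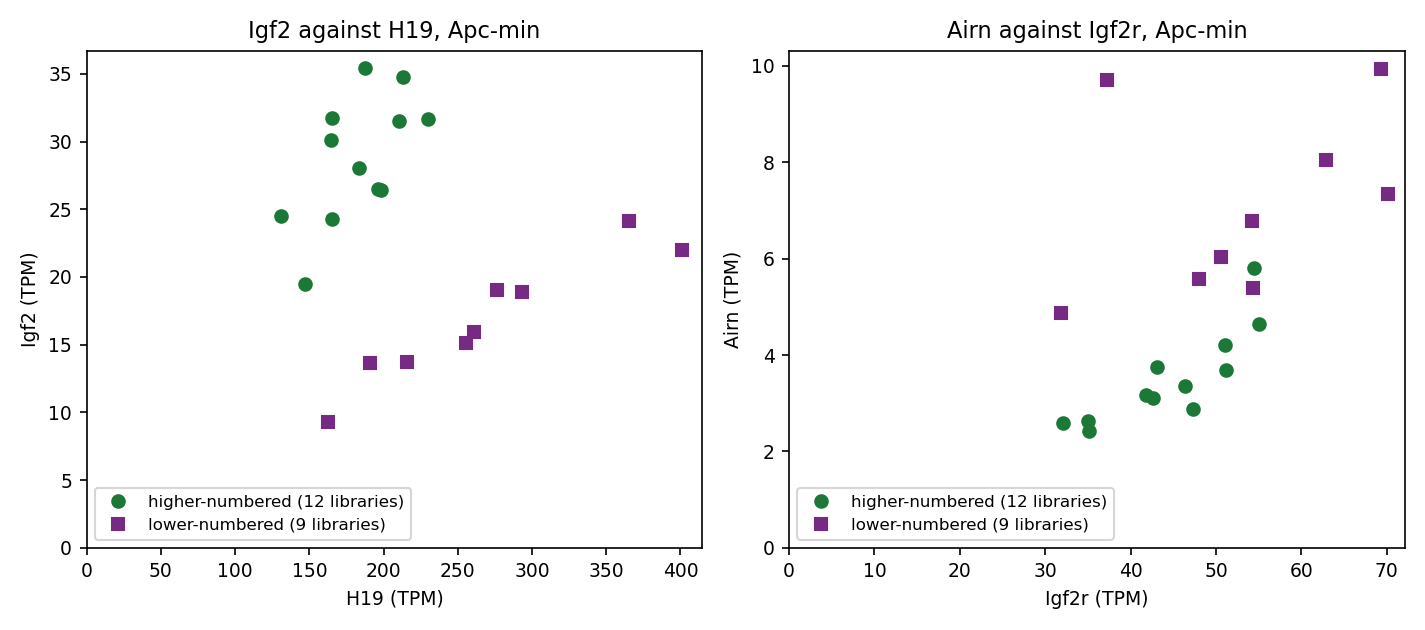
Apc-min libraries without the doubted one, with Igf2 (y axis, TPM) against H19 (x axis, TPM) on the left and Airn (y axis, TPM) against Igf2r (x axis, TPM) on the right, and the 12 higher-numbered and 9 lower-numbered libraries marked apart. The sets form separate bands of Igf2 over H19, with ratios of 0.132 to 0.192 in higher-numbered and 0.0549 to 0.0716 in lower-numbered libraries.

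Gnas (-0.24 ± 0.05, adjusted p = 0.0018) and Grb10 (0.25 ± 0.07, adjusted p = 0.0085) also differed between the Apc-min sets, so 6 of 7 members passed the adjusted p alone in limma. As 67.1% of 12633 genes did so too, the count is not a result about these genes. At 2-fold, 0 of 7 passed in limma, beside 5.85% of genes, and 6 were at an unadjusted p under 0.05, beside 69.7%. With all libraries Igf2 alone passed at 2-fold (1.24 ± 0.36, adjusted p = 0.0109), beside 4.16% of genes, a call that ended without the doubted library 9 or without library 12.

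In control organoids the split ran the other way for Plagl1. It stood at 2.05, 2.98 and 3.83 TPM in the 11 higher-numbered and at 2.16, 5.6 and 7.12 TPM in the 11 lower-numbered libraries, a difference of -0.70 ± 0.12 (limma adjusted p = 0.00267). The ranges overlapped through 1 lower-numbered library, number 77, at 2.16 TPM, and the higher-numbered library was lower at 9 of 10 time points that had both. Cdkn1c (-0.23 ± 0.05, adjusted p = 0.0166) and Dlk1 (-0.33 ± 0.08, adjusted p = 0.0149) were lower too, at 10 and 9 of 10 time points. These 3 of 7 passed the adjusted p alone, beside 24.4% of 12570 genes, and at 2-fold 0 of 7 passed, beside 0.239%.

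No member passed between the sets of the genotypes with null Bmal1. Of 7 members tested in Bmal1-null organoids, 0 passed the adjusted p in limma (1 at an unadjusted p under 0.05, Dlk1 at -0.39 ± 0.11, adjusted p = 0.306), beside 0.502% of genes and 4.8% unadjusted. In Apc-min Bmal1-null organoids 0 of 4 passed (0 at an unadjusted p under 0.05), beside 5.73% of genes and 20.4% unadjusted. Plagl1 was at -0.21 ± 0.13 in Bmal1-null and at -0.15 ± 0.11 in Apc-min Bmal1-null organoids. Whether set differences themselves differed between genotypes was not tested.

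**Figure D4:**
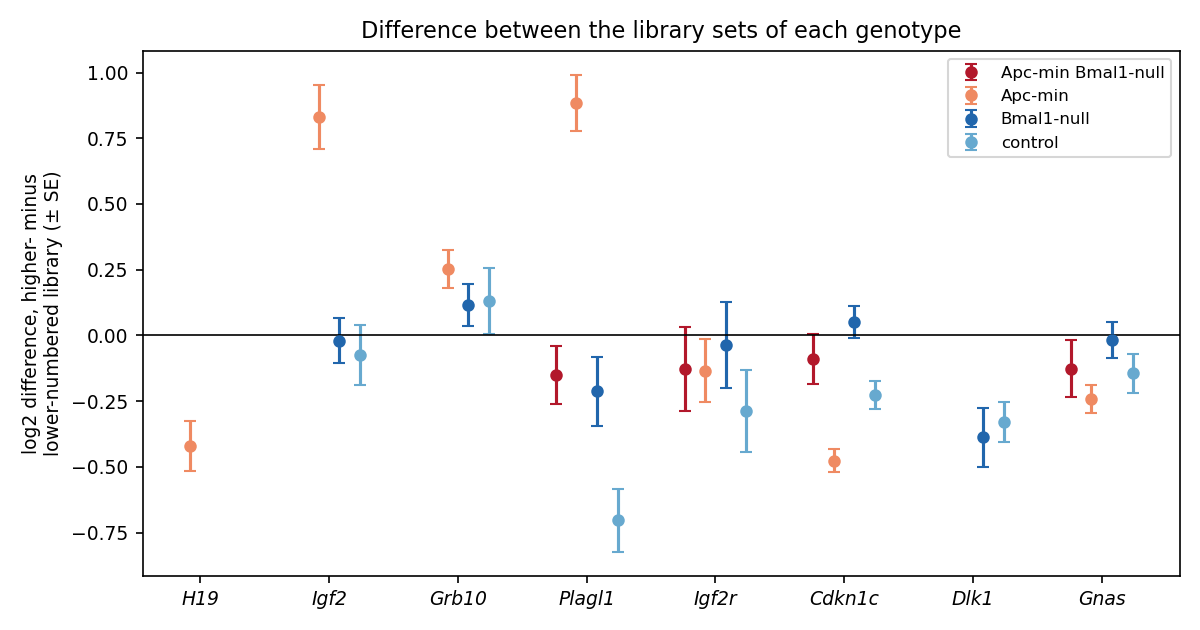
Difference between the higher-numbered and the lower-numbered libraries of each genotype (y axis, log2(TPM + 1) with SE bars) for each gene (x axis), without the doubted libraries. Plagl1 is at 0.89 in Apc-min and at -0.70 in control organoids, and Cdkn1c is at -0.48 in Apc-min organoids.

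The study asked which genes are rhythmic, and a 24 h cosine fitted within each genotype called 0 of the members in any. In Apc-min Bmal1-null organoids 0 of 4 members tested passed (limma, with 0 at an unadjusted p under 0.05 and a lowest adjusted p of 0.434), beside 11.9% of genes and 26.5% unadjusted. In Apc-min organoids 0 of 7 passed (3 at an unadjusted p under 0.05), beside 3.17% and 25% unadjusted. In Bmal1-null organoids 0 of 7 passed (0 unadjusted, lowest adjusted p = 0.891), beside 0% of genes and 6.88% unadjusted, and in control organoids 0 of 7 (0 unadjusted, lowest adjusted p = 0.537), beside 0.0557% and 12.2% unadjusted. The 3 in Apc-min organoids were H19 with an amplitude of 0.33 ± 0.10 log2 units (adjusted p = 0.124), Igf2r with 0.25 ± 0.08 (adjusted p = 0.137) and Gnas with 0.16 ± 0.06 (adjusted p = 0.147), with fitted peaks at 41.7, 39.3 and 41.8 h.

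With all 22 libraries the nearest to a call in Apc-min organoids were Igf2r (0.30 ± 0.08, adjusted p = 0.0535) and Gnas (0.18 ± 0.05, adjusted p = 0.0685), beside 12% of genes called. Leaving out library 13, 28, 40 or 48 called Igf2r, and leaving out 13 or 40 called Gnas. A cosine difference between Apc-min Bmal1-null and Apc-min organoids was called in limma for 0 of 7 members (0 at an unadjusted p under 0.05, lowest adjusted p = 0.705 with all libraries), beside 0% of genes and 6.83% unadjusted. Without the doubted libraries the count was 0 of 7 too (0 unadjusted, lowest adjusted p = 0.995), beside 0% and 2.32% unadjusted. H19, Igf2 and Grb10 averaged under 1 TPM in Apc-min Bmal1-null organoids without the doubted library. For these genes the fit cannot show whether a rhythm differed. Between Bmal1-null and control organoids a cosine difference was called for 0 of 7 as well (0 unadjusted, lowest adjusted p = 0.826), beside 0.0395% and 1.87% unadjusted. A single cycle was sampled, so a cosine and a change in 1 direction over the series are hard to separate, and a straight line over time was therefore fitted after the data were seen.

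H19 rose over the series in Apc-min organoids, by 0.0449 ± 0.0087 log2 units per h (limma adjusted p = 0.00138). This slope was fitted without a term for set. The lower-numbered libraries, higher in H19, are missing at 24 and 32 h and, as the doubted one, at 28 h. Higher-numbered libraries averaged 212.4 ± 16.9 TPM at 42 to 46 h, against 153.6 ± 19.6 TPM at 24 to 28 h (SD, n = 3 each). Lower-numbered libraries averaged 353.3 ± 55.02 TPM at 42 to 46 h (SD, n = 3), against 162.6 TPM in the single one at 24 to 28 h. Both sets rose, and the slope was flatter in the higher-numbered libraries, with a difference of -0.0364 ± 0.0084 log2 units per h (limma adjusted p = 0.0294), the 1 of 7 members called for this difference, beside 1.53% of genes. Igf2 had a slope difference in the same direction, -0.049 ± 0.0134 (adjusted p = 0.0772), and did not pass. With all libraries, the doubted one with H19 at 0.33 TPM included, neither passed (H19 adjusted p = 0.425), beside 0.182% of genes.

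Gnas also rose in Apc-min organoids, by 0.019 ± 0.0054 log2 units per h (limma adjusted p = 0.0163), averaging 712.3 ± 87.9 TPM at 42 to 46 h (SD, n = 6) against 568.7 ± 50.3 TPM at 24 to 28 h (SD, n = 4). The late mean holds 3 libraries of each set, the early mean 1 lower-numbered and 3 higher-numbered. Gnas averaged 723.4 TPM in lower-numbered and 586.8 TPM in higher-numbered libraries, and this slope was fitted without a term for set. Higher-numbered libraries held 533.36, 628.16 and 521.1 TPM at 24, 26 and 28 h, and 581.91, 632.45 and 712.88 TPM at 42, 44 and 46 h. H19 and Gnas, 2 of 7 members, passed the slope test, beside 25.4% of all genes, 18.4% of all genes rising. With all libraries the 2 were Gnas (0.0205 ± 0.0053, adjusted p = 0.00729) and Igf2r (0.0253 ± 0.0096, adjusted p = 0.0481), beside 31.2% of genes, and H19 did not pass (adjusted p = 0.0936). Grb10 was near the threshold without the doubted library (0.0172 ± 0.0064, adjusted p = 0.0528). Igf2, Plagl1 and Cdkn1c had slopes of 0.0152 ± 0.0152, -0.0065 ± 0.015 and 0.0116 ± 0.008.

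**Figure D5:**
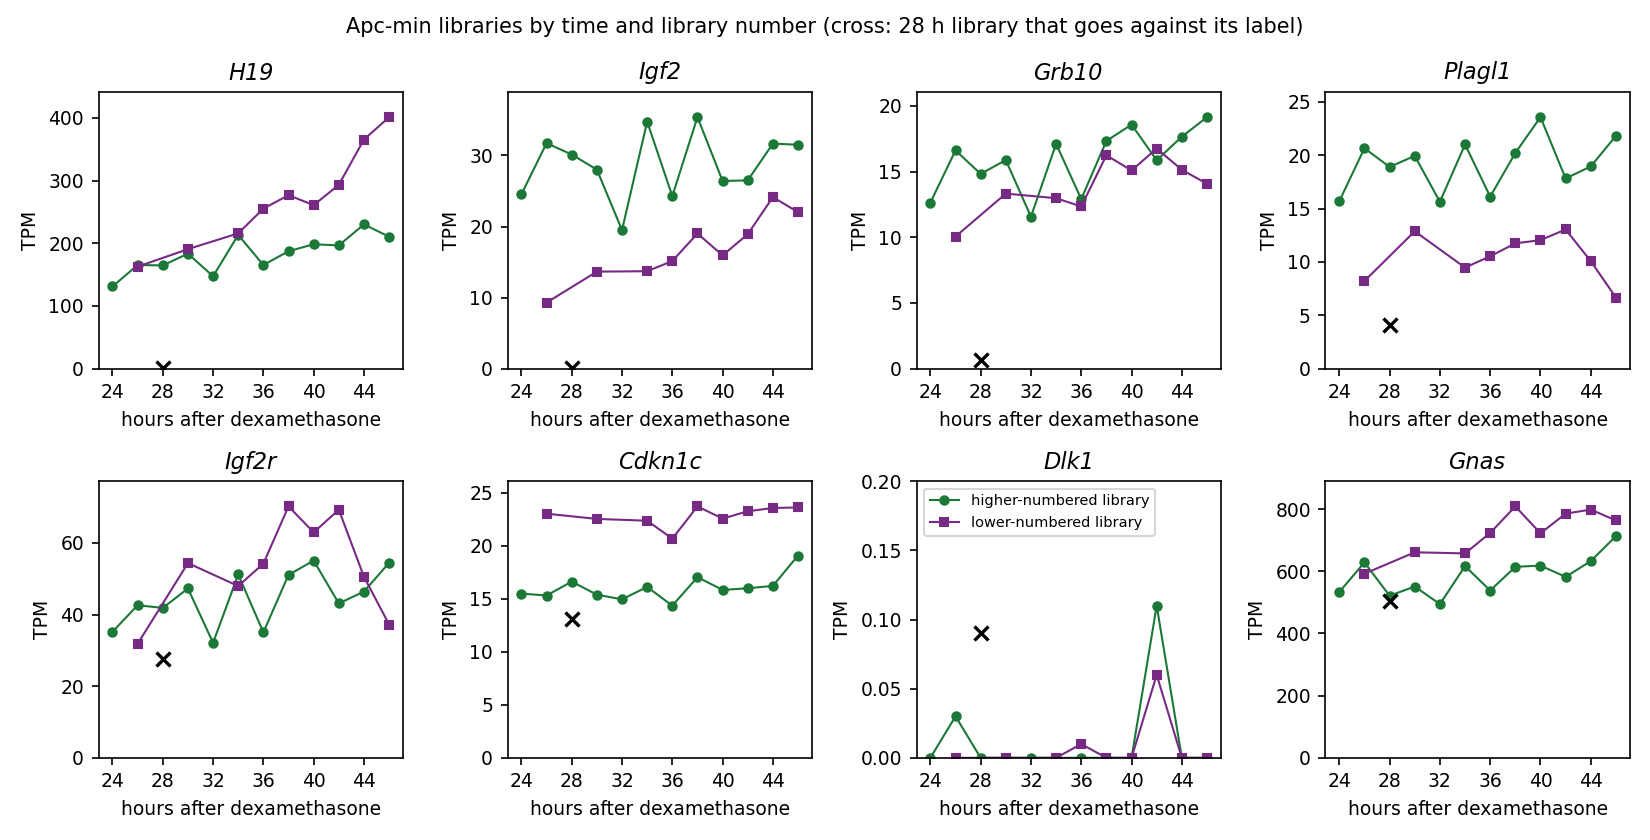
TPM of each gene (y axis, each panel on its own scale) by hours after dexamethasone (x axis) in Apc-min organoids, with the higher-numbered and lower-numbered libraries as separate lines and the doubted 28 h library as a cross. H19 of the lower-numbered libraries climbs to 401.21 TPM, Plagl1 and Cdkn1c run as separate lines in opposite order, and Dlk1 stays at or under 0.11 TPM.

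Cdkn1c fell over the series in Apc-min Bmal1-null organoids, with a slope of -0.0171 ± 0.0059 log2 units per h (limma adjusted p = 0.0458), the 1 of 4 members called, beside 17.5% of all genes, 5.03% of all genes falling. It averaged 9.12 ± 0.739 TPM at 42 to 46 h, against 11.9 ± 1.65 TPM at 24 to 28 h (SD, n = 5 each). With all libraries it missed the threshold (-0.0229 ± 0.008, adjusted p = 0.0841), beside 8.44% of genes. In Bmal1-null organoids Cdkn1c averaged 22.02 ± 1.87 TPM at 42 to 46 h (SD, n = 5), against 27.1 ± 1.48 TPM at 24 to 28 h (SD, n = 6), with a slope of -0.0123 ± 0.0039 that did not pass (adjusted p = 0.0585). Of 7 members there, 0 passed (limma, with Cdkn1c and Igf2, 2 of them, at an unadjusted p under 0.05), beside 6.71% of genes and 22.1% unadjusted. In control organoids 0 of 7 passed in limma (0 unadjusted), beside 2.2% and 16.1% unadjusted.

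Igf2 was lower at the end than at the start of the series in Apc-min Bmal1-null organoids, at levels below the filter, where no test was run. It averaged 0.036 ± 0.0391 TPM at 42 to 46 h, against 0.228 ± 0.0572 TPM at 24 to 28 h (SD, n = 5 each). The values between did not fall evenly. They were 0.06 and 0.03 TPM at 32 h, 0.06 TPM at 34 h, and 0.39 and 0.03 TPM at 38 h, with 0.39 TPM the highest of the genotype. In Bmal1-null organoids the late mean was the higher one, with 1.43 ± 0.235 TPM at 42 to 46 h (SD, n = 5) and 0.788 ± 0.316 TPM at 24 to 28 h (SD, n = 6). The slope there, 0.0184 ± 0.0071, did not pass (limma adjusted p = 0.121).

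The genes whose log2(TPM + 1) values were most like a member's over all 88 libraries are named as a description, since libraries of a genotype move together. Igf2 and Grb10 were each other's nearest gene (Pearson r = 0.980), although they lie on different chromosomes. Next to Igf2 came Bex4 (0.966) and Lyz2, the myeloid-type lysozyme gene (0.964). Nearest to H19 were the Wnt modulator Dkk2 (0.995), the sulfotransferase gene Ust (0.9945) and Rdh1 (0.991), and Dkk2 (0.972) and Plekhg1 (0.970) followed Igf2 for Grb10. H19, Igf2 and Grb10 were far higher in Apc-min than in the other genotypes, and r over all libraries includes that difference. As deviations from the genotype mean, without the 2 doubted libraries, neither Igf2 nor Grb10 was among the other's 3 nearest genes. Nearest were then Cdx2 to Igf2 (0.67), Rhoq to Grb10 (0.77) and Lgals3bp to H19 (0.73). Lyz2 averaged 0.579 TPM in Apc-min Bmal1-null, 10.5 TPM in Apc-min, 1.33 TPM in Bmal1-null and 1.35 TPM in control organoids with all libraries. The leukocyte genes Ptprc and Cd3e averaged under 0.1 TPM in both Apc-min genotypes, and the part of such cells was not tested.

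For Plagl1 the nearest genes were Il1rap (0.942), the Myc relative Mycl (0.940) and the phosphatase gene Ptprt (0.932). For Igf2r they were Znrf3, a ubiquitin ligase that removes Wnt receptors (0.975), the growth factor gene Tgfa (0.974) and Tns3 (0.972). Those of Cdkn1c were Sdf4 (0.916), Lrrc26 (0.915) and Cpt2 (0.910), and those of Gnas were Mark4 (0.946), Cyth1 (0.936) and Sox13 (0.933). Dlk1, absent or nearly so from both APCmin genotypes, was most like Clca4a, Scg2 and Maob (0.985 each).

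Of 43 other imprinted genes listed, 20 were expressed enough to test between Apc-min Bmal1-null and Apc-min organoids, and 1 passed higher and 1 lower in limma, beside 2.33% and 5.58% of all genes. This list and those of IGF signalling and imprint maintenance were chosen with earlier results of these data known. Their counts below, set beside all genes, are therefore a description and no test. Ddc, which encodes the decarboxylase that makes dopamine and serotonin and adjoins Grb10, was higher by 1.27 ± 0.10, and the splicing protein gene Snrpn was lower (-1.14 ± 0.18). Ddc averaged 26.2 TPM in Apc-min Bmal1-null, 11.2 TPM in Apc-min, 71.02 TPM in Bmal1-null and 51.8 TPM in control organoids. The list's median difference was -0.31, against -0.05 over all genes tested. The members' was -1.69, which was fixed in part by choosing them on this difference. Snrpn also differed between the library sets of Apc-min Bmal1-null organoids, by 1.303 ± 0.057, and with all libraries Ddc alone passed between the genotypes (1.17 ± 0.12).

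Between Apc-min and control organoids 3 of 20 other imprinted genes passed higher and 2 lower, beside 12.2% and 12.4% of all genes. Phlda2, a growth-restraining gene (1.80 ± 0.10), the tetraspanin Cd81 (1.78 ± 0.06) and Ascl2, a Wnt-driven stem cell factor (1.08 ± 0.08), were higher, and Ddc (-2.20 ± 0.11) and the transporter Slc22a18 (-1.02 ± 0.10) were lower. Cd81 averaged 359.3 TPM in Apc-min Bmal1-null, 560.4 TPM in Apc-min, 162.9 TPM in Bmal1-null and 159.0 TPM in control organoids, and Phlda2 69.6, 47.05, 13.1 and 12.7 TPM in the same order. Between Bmal1-null and control organoids 0 of 20 passed at 2-fold in limma, beside 0.166% of 12654 genes, and 2 were at an unadjusted p under 0.05, beside 10.6%.

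Among 16 genes of IGF signalling, 11 could be tested between Apc-min Bmal1-null and Apc-min organoids. The receptor substrate Irs1 (-1.40 ± 0.10) and the binding protein Igfbp5 (-1.02 ± 0.14) passed lower, and Igf2bp1, whose protein binds Igf2 mRNA, passed higher (1.06 ± 0.10), which is 2 lower and 1 higher of 11, beside 5.58% and 2.33% of all genes. With all libraries Irs1 alone passed (-1.23 ± 0.17). The IGF1 receptor gene Igf1r averaged 2.63 TPM in Apc-min Bmal1-null, 3.40 TPM in Apc-min, 3.60 TPM in Bmal1-null and 3.61 TPM in control organoids. Between Bmal1-null and control organoids 1 of 5 passed, the binding protein gene Igfbp4 (-2.13 ± 0.06), beside 0.166% of genes called, at 13.3 TPM in Bmal1-null and 61.6 TPM in control organoids. Between Apc-min and control organoids 4 of 10 passed higher and 3 lower, beside 12.2% and 12.4% of all genes, led by Igfbp3 (3.79 ± 0.05), Igfbp4 (-2.04 ± 0.19), Igf2bp2 (-1.93 ± 0.11) and Irs1 (1.81 ± 0.10). Igfbp4 also differed between the Apc-min library sets (1.54 ± 0.11).

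Of the genes that maintain imprints, 10 were tested between Apc-min Bmal1-null and Apc-min organoids and 0 passed at 2-fold in limma (8 at an unadjusted p under 0.05, beside 68.8% of genes), while Zfp57, a zinc finger protein that protects imprints in mouse embryos, passed higher between Apc-min and control organoids (2.69 ± 0.08) and between Apc-min Bmal1-null and Bmal1-null organoids (3.07 ± 0.06). Zfp57 averaged 12.3 TPM in Apc-min Bmal1-null and 9.27 TPM in Apc-min organoids, against 0.552 TPM in Bmal1-null and 0.595 TPM in control organoids. Uhrf1, a cofactor of the maintenance methyltransferase, passed between the Apc-min library sets (1.37 ± 0.12).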

How the data were processed

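TPM tables, 1 per genotype, were deposited by the authors from RSEM, and the submitters' processing notes list RSEM 1.3.0, STAR 2.5 and GRCm38 without saying which step each served. The TPM of a library added up to between 999999.2 and 1000001.03. The read counts, input and uniquely mapped, and the percent of reads unmapped as too short come, per the file headers, from the aligner's log as the authors deposited it. The labels name 96 libraries, of which the authors used 88, and the other 8 stay out. Read depth sets precision but TPM carries no counts, so no counting interval is given.

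The members and gene lists were chosen with earlier results of these data known, and the rule names all 8 members, the 3 genes of highest correlation with each (no predicted genes) and up to 4 called genes per list. The design set the fits on all 88 libraries, and values are led by the fits without the 2 doubted libraries. TPM was analysed as log2(TPM + 1) in limma 3.58.1 with a variance trend (R 4.3.3), for genes averaging at least 1 TPM in a compared genotype, with p-values adjusted over all genes tested. Levels and library sets were fitted with each time point as a level, and called at an adjusted p under 0.05 and 2-fold, and cosines and slopes at an adjusted p under 0.05. Fits were tested on simulated data. Alternatives were a pseudocount of 0.1, other filters, median-of-ratios scaling, 1 library set alone and leaving out libraries. Slopes, their set differences and the fit over both Apc backgrounds were added after seeing the data.

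Gene names and coordinates are from GENCODE M21 on GRCm38, and 55450 of the 55536 IDs have a symbol. Promoters and miRNAs are from RefSeq on GRCm38.p6, in which 6 of the 8 members have a promoter entry.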

Additional observations from a re-analysis of the deposited data

Results flagged for a closer look

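The slope of H19 over time differed between the library sets of Apc-min organoids, by -0.0364 ± 0.0084 log2 units per h in higher-numbered minus lower-numbered libraries (limma adjusted p = 0.0294), without the doubted library. This test of a difference between groups was chosen after seeing the data, and 1 of 7 members passed it, beside 1.53% of genes. H19 rose in both sets, to 212.4 TPM at 42 to 46 h in higher-numbered and 353.3 TPM in lower-numbered libraries. The lower-numbered set has a single library at 24 to 28 h, at 162.6 TPM. With the doubted library included the difference was -0.18 ± 0.08 and did not pass (adjusted p = 0.425). Whether the sets stand for the organoid lines was not tested, since the line of a library is not given.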

How the results depend on the processing

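The planned fits hold all libraries, and no called value of a single member reversed under the alternatives run. Leaving out any 1 library left the counts of members past the call rule for level, which the choice of genes fixed in part, at 4 (Apc-min Bmal1-null against Apc-min), 0 (Bmal1-null against control), 6 (Apc-min against control) and 2 (Apc-min Bmal1-null against Bmal1-null), and the last became 4 with a pseudocount of 0.1. Between the Apc-min library sets 1 member was called, with 2 at a pseudocount of 0.1, 0 without the doubted libraries and 0 to 2 when each library was left out. Igf2 lost its call without library 9 or 12, and Plagl1, at 0.99 with all libraries, passed 2-fold without any 1 of 12 others. The Apc-min cosine called 0 members, with 2 when the library set was a term and 0 to 2 when each library was left out. The Apc-min Bmal1-null slope called 0, with 1 without the doubted libraries and 1 with the set as a term. The slope difference between Apc-min sets called 0, with 1 without the doubted libraries. Apart from left-out libraries, the cause of these shifts was not tested. Over all genes, the cosine called 316 in Apc-min Bmal1-null (151 to 1444 leaving out 1 library) and 1513 in Apc-min organoids (401 to 2643). The slope called 1030 in Apc-min Bmal1-null organoids, with 2125 without the doubted library, and the slope difference 23 in Apc-min organoids, with 193. The members' level values were set against the residual SD of the planned fit, which includes the doubted libraries. That SD is wide, for H19 1.71 log2 units beside an SE of 0.52 between Apc-min Bmal1-null and Apc-min organoids. A value within it may still have moved by more than its SE. Within 1 such SD stayed 303 values, and 12 did not. Among those, Plagl1 lay at -2.10 in higher-numbered and -0.89 in lower-numbered libraries alone between Apc-min Bmal1-null and Apc-min organoids, and at 2.34 and 0.85 between Apc-min and control organoids. No paired analysis was possible because library numbers are not shared between genotypes, while the time points they share are a term of the level fits. The planned cosine and set fits on the authors' quantile-normalized tables were not run, since their columns name a time point but not a library. Levels near 0 TPM limit what can be said of H19 outside Apc-min, of Igf2 in Apc-min Bmal1-null and of Dlk1 in both APCmin genotypes.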
